A study of Mus musculus with 6 samples.

Results

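Collagens are the trimeric proteins that give the heart's connective tissue its tensile strength, and the genes that encode their chains are described here in the non-cardiomyocyte cells of the mouse ventricle after coronary ligation. The members were all genes whose symbol has the form of a collagen chain (Col, a number, a, a number) and which had at least 50 unique molecular identifiers (UMIs, each standing for 1 captured mRNA molecule) over the 6 libraries. Of 44 such symbols among 32285 genes, 32 were members: 9 of 11 fibrillar chains, 8 of 8 basement membrane chains and 15 of 25 other chains. Just inside the limit stood Col26a1 with 53 UMIs, Col20a1 with 76 and Col7a1 with 77. Just outside it stood Col25a1 with 48, Col8a2 with 47 and Col24a1 with 39. The cartilage chain Col2a1 had 2 UMIs and the growth plate chain Col10a1 had 0.

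The study compared mice carrying the Trpm4 allele of strain B6.Cg-Trpm4tm1.2-PG (KO) with C57BL/6JRj mice (WT), all males of 8 to 12 weeks. Trpm4 encodes a calcium-activated cation channel. Hearts were taken 24 h after a sham operation, or 24 h or 72 h after the LAD (the left anterior descending branch of the coronary arteries) was tied off, which causes a myocardial infarct, and no sham group of 72 h is among the samples used here. Ventricles were digested with thermolysin and papain, cardiomyocytes were held back by a 40 µm mesh, live cells were sorted on Calcein-AM and DAPI, and the cells of 4 mice were pooled into 1 library of 10x 3′ single-cell RNA-seq for each of the 6 groups.

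Fibrillar collagens are secreted by fibroblasts as procollagens, are trimmed outside the cell and assemble into cross-linked fibrils, with types I and III as the bulk of the cardiac interstitium and type V as a minor chain that starts and limits fibril growth. Basement membrane collagens form the sheet-like network under endothelial cells and around muscle and mural cells. Type IV chains build the network, and types XV and XVIII attach to it and release the fragments restin and endostatin. Of the other collagens, type VI forms beaded microfibrils, types XII, XIV and XVI sit on fibril surfaces, and type VIII is a short-chain network collagen of vessels.

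The 6 libraries held 3625 to 7286 cells and 20995280 to 45649061 UMIs, and 3365 to 6824 cells were kept. Pairs of libraries shared 3 to 14 cell barcodes. The KO 72 h library stood apart: its median kept cell had 1350 UMIs, against 3073 to 8011 in the other 5, and its fibroblasts had a median of 1031 UMIs against 8818 to 10792. Several of the summed levels and leading members that rest on it, not all, are therefore also given for cells with at least 2500 UMIs. Every other value is over all kept cells. The targeted gene, Trpm4, was at 8.79 and 6.20 after sham, 5.52 and 3.46 at 24 h and 4.29 and 2.57 at 72 h per 1000000 UMIs of all deposited cells, WT first, from 54 to 305 UMIs. The deleted part of the gene is not given in the sources used here, so a 3′ tag does not check the genotype labels. With 1 library per group there is no replicate and no test: intervals are 95% and cover counting error only. "Rose" and "fell" stand for a difference of at least 2-fold with at least 50 UMIs in the 2 libraries together.

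Collagen mRNA was concentrated in a few cell classes, which were named from marker genes after clustering without the collagens. Levels are given as CPM, the UMIs of a gene per 1000000 UMIs of the class in a library. A 3′ library counts 1 tag per molecule, so these levels carry no correction for length. Summed over libraries, 17 of the 32 members were highest in fibroblasts, 3 each in endothelial and endocardial cells, 2 each in pericytes, mesothelial and lymphatic endothelial cells, and 1 each in smooth muscle cells, neutrophils and B cells. Some of these places rest on few UMIs. Col20a1 was highest in pericytes at 0.998 CPM, with 2.9% of its 69 UMIs in kept cells. Col9a3 was highest in B cells at 2.99 CPM and had 89 UMIs in kept cells of all classes. Fibroblasts held over 50% of the UMIs of 22 members. They held 90.6% of those of Col1a1, 89.4% of Col3a1, 91.9% of Col5a1 and 98.5% of Col11a1. Endothelial cells held 63.6% of the UMIs of Col4a1, 68.2% of Col4a2 and 87.6% of Col28a1, a chain best known from peripheral nerve.

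**Figure D1:**
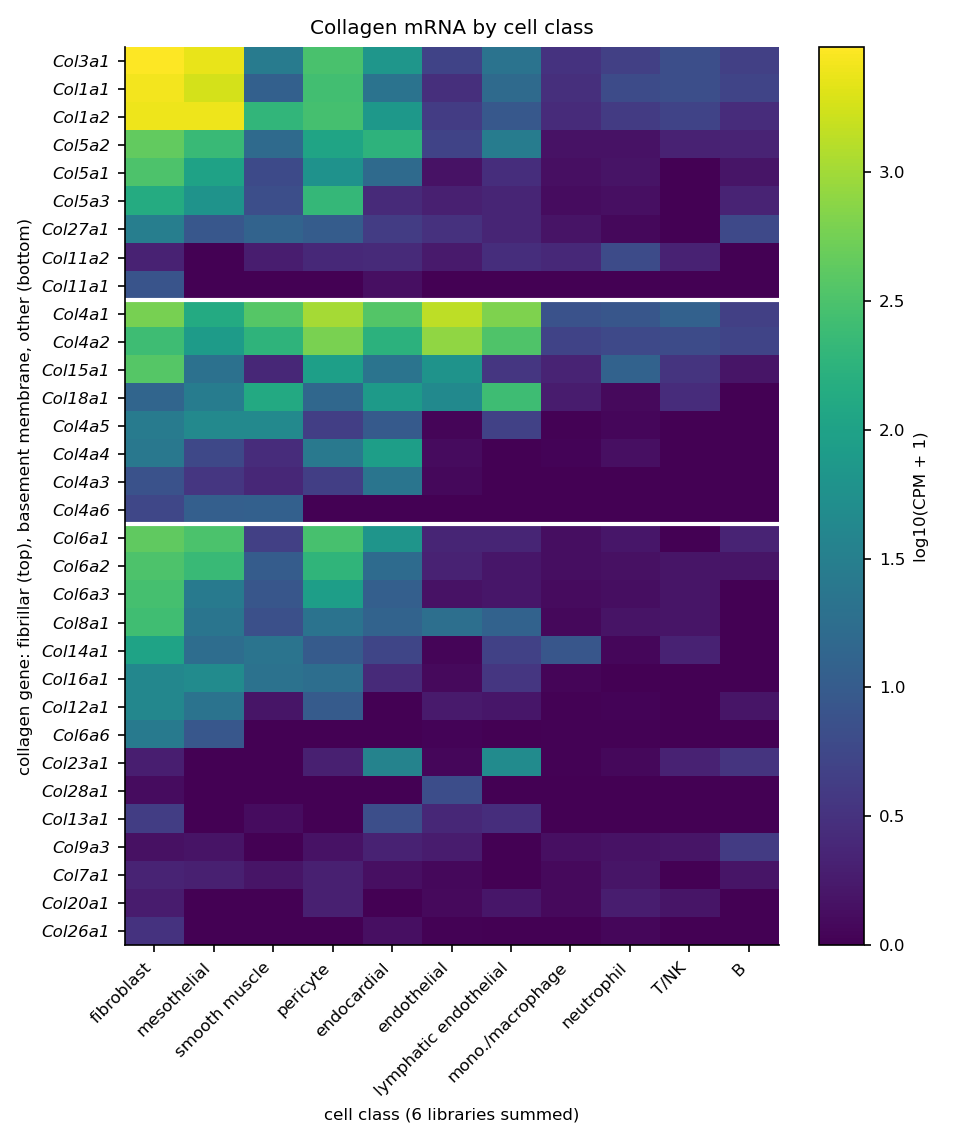
Level of each of the 32 collagen genes (rows, in 3 groups) in 11 cell classes (columns), as log10(CPM + 1) with the 6 libraries summed. The fibrillar block is brightest in fibroblasts and mesothelial cells, and Col4a1 and Col4a2 are brightest in endothelial cells and pericytes.

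A UMI of a highly expressed collagen can reach other cells as free RNA. Col1a1 was detected in 98.1, 97.3, 85.4, 80.9, 90.5 and 83 percent of fibroblasts in the WT sham, KO sham, WT 24 h, KO 24 h, WT 72 h and KO 72 h libraries. After every cell was thinned to 1000 UMIs, with shallower cells left out, the shares were 73, 71.6, 50.8, 50, 79.9 and 83.4 percent. In neutrophils, which should lack the gene, 1.47, 0.896, 1.30, 0.821, 0.84 and 4.63 percent of cells had a Col1a1 UMI, so the background was low in each library and highest in the KO 72 h library. Neutrophils had median depths of 1581 to 3158 UMIs, against 1031 to 10792 in fibroblasts.

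Fibroblasts numbered 374, 447, 198, 183, 147 and 1077 in the same order of libraries. The 10 fibroblast markers, among them Pdgfra, Dcn and Dpt, summed to 9230 to 36971 CPM in fibroblasts and to 18.2 to 146 CPM in endothelial cells. Classes were named from these marker lists, so the sums describe the class and do not check it. The fibroblasts of the KO 72 h library also carried 4205 CPM of the 11 monocyte and macrophage markers, all 11 detected, against 33.5 to 401 CPM in the other 5 libraries. The 8 neutrophil markers summed to 1942 CPM there, against 25.9 to 1002 CPM. Their part in the results on that library was not tested.

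Fibrillar collagens made up the largest share of collagen mRNA in fibroblasts, and their summed level was lowest at 24 h and highest at 72 h after ligation in both genotypes. The sum was, WT first, 7204 and 6304 CPM after sham, 3427 and 3654 at 24 h and 21617 and 11996 at 72 h. Fibroblasts held 80.2% to 93.9% of each library's fibrillar collagen UMIs. At 72 h fibrillar chains made up 2.16% of all UMIs of WT fibroblasts, and 1.20% in KO.

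Col1a1 and Col1a2 encode the α1 and α2 chains of type I collagen, and Col3a1 the single chain of type III. Col1a1 lies at chr11:94936224-94953042 (GRCm38), Col1a2 at chr6:4504814-4541544 and Col3a1 at chr1:45311538-45349706, next to Col5a2 at chr1:45374321-45503282. The sequence before the start of 3 fibrillar genes that moved together, and of Col15a1, is printed here for reading beside those values. In fibroblasts Col15a1 was also lowest at 24 h, but its level at 72 h stayed below that after sham. The sequences come from RefSeq on GRCm38.p6, 5′ to 3′ on the gene's own strand, with the 250 bases before the start, except for Col1a2, where only the 123 bases outside annotated exons are given. The start is that of the RefSeq table. For Col1a2 it lies at base 4505618, 804 bases inside the GENCODE interval given above, and the printed stretch is within that interval. For Col15a1 it lies 149 bases before the GENCODE start. Capitals mark every match of the letters, on either strand and at any distance from the start, of 4 motifs. These are TATAAA (the letters of the TATA box), the CCAAT box, the GC box (GGGCGG) and the AP-1 motif (TGANTCA). No matches overlap.
Col1a2 (chr6:4505370-4505492, plus strand): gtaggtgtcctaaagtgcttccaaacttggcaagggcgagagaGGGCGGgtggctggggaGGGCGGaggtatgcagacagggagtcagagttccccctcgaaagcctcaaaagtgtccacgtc
Col3a1 (chr1:45311288-45311537, plus strand): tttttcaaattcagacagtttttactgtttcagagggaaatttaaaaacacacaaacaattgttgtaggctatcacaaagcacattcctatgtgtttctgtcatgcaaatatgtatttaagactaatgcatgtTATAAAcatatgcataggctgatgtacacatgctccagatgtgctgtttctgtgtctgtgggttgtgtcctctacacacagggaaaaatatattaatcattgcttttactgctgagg
Col5a1 (chr2:27886175-27886424, plus strand): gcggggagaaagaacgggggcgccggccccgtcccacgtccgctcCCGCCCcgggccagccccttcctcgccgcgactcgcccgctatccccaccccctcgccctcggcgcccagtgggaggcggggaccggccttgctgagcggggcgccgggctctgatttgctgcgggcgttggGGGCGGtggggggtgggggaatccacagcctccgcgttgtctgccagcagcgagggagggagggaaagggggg
Col15a1 (chr4:47207762-47208011, plus strand): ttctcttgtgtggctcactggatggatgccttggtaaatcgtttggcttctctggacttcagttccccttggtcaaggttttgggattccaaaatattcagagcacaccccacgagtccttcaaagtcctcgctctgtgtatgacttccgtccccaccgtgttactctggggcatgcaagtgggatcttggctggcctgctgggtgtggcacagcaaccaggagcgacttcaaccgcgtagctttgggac
The Col1a2 stretch held the GC box at 205 and 188 bases before the start, and a CCAAT match 109 bases before it lies in the part left out. The Col3a1 window held 1 TATAAA match, 117 bases before the start, and no other motif. The GC box stood in Col5a1 at 73 bases and, on the opposite strand, at 205. None of the 4 motifs was in the Col15a1 window. Among 32536 promoter windows of 250 bases, 12.3% held a match of TATAAA, 33.8% of the CCAAT box, 33% of the GC box and 6.73% of the AP-1 motif. A match is thus a common feature and is given as a description.

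The type I and III chains shared 1 course. In fibroblasts Col1a1 stood at 1621 and 1455 CPM after sham, 825 and 894 at 24 h and 7151 and 4091 at 72 h. Its partner Col1a2 stood at 1788 and 1746 CPM after sham, 883 and 907 at 24 h and 6154 and 3249 at 72 h. Col3a1 was at 2924 and 2299.9 CPM after sham, 1125 and 1227 at 24 h and 6661 and 3566 at 72 h. All 3 were lower in both 24 h libraries than in either sham library and highest in the WT 72 h library, with the KO 72 h library second. The counting intervals of the 24 h, sham, KO 72 h and WT 72 h libraries did not overlap. The type V chains are made by the same cells at a lower level. Col5a1 was at 311 and 269.9 CPM after sham, 177 and 191 at 24 h and 578 and 368 at 72 h and Col5a2 at 350.2 and 361 CPM after sham, 288 and 298 at 24 h and 857 and 547 at 72 h, with the same order of times and a smaller range. Col11a1, a minor fibril chain best known from cartilage, was scarce: it had 16 and 23 UMIs after sham, 6 and 4 at 24 h, and 55 and 28 at 72 h (3.95 and 5.27 CPM after sham, 2.31 and 1.69 at 24 h and 16.8 and 12.7 at 72 h). Col27a1, the remaining fibrillar chain highest in fibroblasts, lay between 18.5 and 36.3 CPM.

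**Figure D2:**
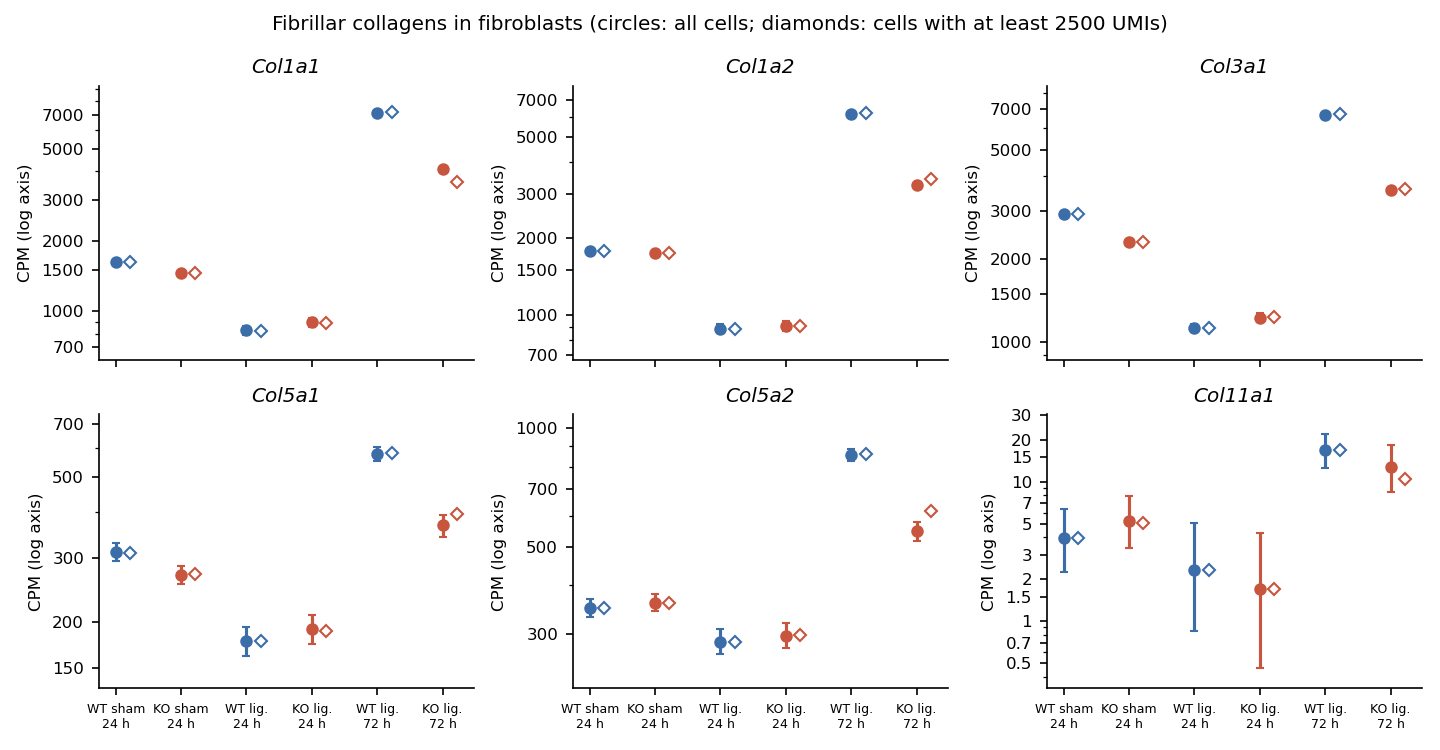
Level in fibroblasts (CPM, log axis) of 6 fibrillar collagens in the 6 libraries, WT in blue and KO in red. Filled circles are all kept fibroblasts with 95% counting intervals, and open diamonds are cells with at least 2500 UMIs. Each gene is lowest at 24 h and highest at 72 h, and Col1a1 reaches 7151 CPM in the WT 72 h library.

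At 24 h after ligation, against sham, 9 of 22 members measured in WT fibroblasts fell and 0 rose. Of all 9310 genes measured, 4.6% fell and 4.77% rose, and the median member was at -0.94 on the log2 scale against -0.06 for all genes. Col3a1 fell 2.60-fold (log2 ratio -1.38, 95% interval -1.44 to -1.32) and Col1a2 2.03-fold (-1.02, 95% interval -1.09 to -0.95), while Col1a1, at -0.97 (95% interval -1.05 to -0.90), stayed just inside the limit. In KO fibroblasts 4 of 22 members fell and 0 rose, where 9.31% of all genes fell and 3.83% rose. That count was 7 with a minimum of 20 UMIs and 1 with 200, so it rests on the minimum, and its difference from the WT count was not tested. Here Col3a1 was at -0.91 (95% interval -0.97 to -0.85), Col1a2 at -0.94 (95% interval -1.01 to -0.88) and Col1a1 at -0.70 (95% interval -0.77 to -0.63). Col1a1 lay under the limit in both genotypes. The summed fibrillar level was 2.10-fold lower in WT (log2 ratio -1.07, 95% interval -1.11 to -1.04) and 1.73-fold lower in KO (-0.79, 95% interval -0.82 to -0.75). The 24 h libraries held fewer fibroblasts among the kept cells (5.88% and 2.79%) than the sham libraries (7.10% and 7.88%).

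Between 24 h and 72 h the fibrillar chains of WT fibroblasts rose together. Of 22 members measured, 9 rose and 3 fell, against 6.19% and 15.9% of all genes, whose median was at -0.26. Those that rose were 6 of 8 measured fibrillar chains and 3 fibril-associated ones. Col1a1 rose 8.67-fold (log2 ratio 3.12, 95% interval 3.05 to 3.18), Col1a2 6.97-fold (2.80, 95% interval 2.74 to 2.86) and Col3a1 5.92-fold (2.57, 95% interval 2.51 to 2.62). Col11a1 rose 7.27-fold (2.86, 95% interval 1.65 to 4.37), Col5a1 3.26-fold (1.70, 95% interval 1.56 to 1.85) and Col5a2 2.98-fold (1.57, 95% interval 1.46 to 1.69). The sum rose 6.31-fold (2.66, 95% interval 2.63 to 2.69).

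In KO fibroblasts 7 of 20 members rose between 24 h and 72 h and 0 fell, against 7.19% and 6.46% of all genes. With a minimum of 200 UMIs 4 rose. Col1a1 rose 4.58-fold (log2 ratio 2.19, 95% interval 2.13 to 2.26), Col1a2 3.58-fold (1.84, 95% interval 1.77 to 1.91) and Col3a1 2.91-fold (1.54, 95% interval 1.48 to 1.60). Col5a1 and Col5a2 were at 0.94 and 0.88, under the limit, and at 1.07 and 1.05 in cells with at least 2500 UMIs. The summed fibrillar level rose 3.28-fold (1.72, 95% interval 1.68 to 1.75), and its ratio was 1.69 (95% interval 1.66 to 1.73) in cells with at least 2500 UMIs. Markers of smooth muscle, which include Acta2 and Tagln, moved with the 72 h libraries: the 7 genes summed to 180.0 and 243 CPM after sham, 37 and 173 at 24 h and 3407 and 1956 at 72 h in fibroblasts, and their part was not tested.

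**Figure D3:**
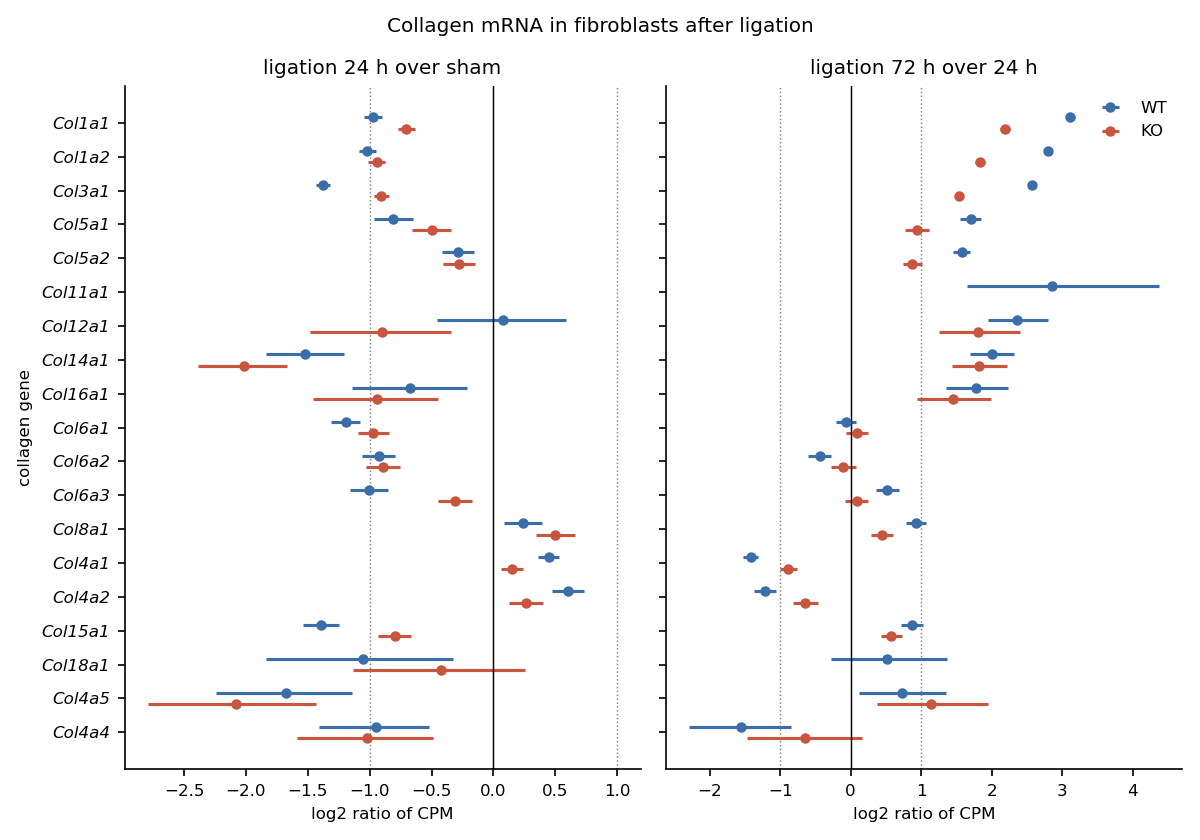
Log2 ratio of CPM in fibroblasts for 19 collagen genes, with 24 h after ligation against sham on the left and 72 h against 24 h on the right, WT in blue and KO in red. Bars are 95% counting intervals, dotted lines mark 2-fold, and pairs with under 50 UMIs are left out. Col1a1 moves from -0.97 on the left to 3.12 on the right in WT, while Col4a1 moves from 0.45 to -1.42.

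KO and WT fibroblasts were compared at each time. After sham, 1 of 23 members fell (Col6a6) and 0 rose, against 0.599% and 0.974% of all genes. The fibrillar sum was at a log2 ratio of -0.19 (95% interval -0.22 to -0.17), with Col3a1 at -0.35 (95% interval -0.38 to -0.31) and Col1a2 at -0.03 (95% interval -0.08 to 0.01). At 24 h, 0 of 20 members were past 2-fold, where 2.46% of all genes fell and 0.586% rose, and the fibrillar sum was at 0.09 (95% interval 0.05 to 0.14). Over the whole class, the summed fibrillar levels of the 2 genotypes thus lay within 1.14-fold of each other after sham and within 1.07-fold at 24 h. Levels within sets of fibroblast clusters, given below, differed more.

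At 72 h the KO library had the lower fibrillar level. The sum was 1.80-fold lower than in WT (log2 ratio -0.85, 95% interval -0.87 to -0.83), and all 8 measured fibrillar chains were below 0. Col1a2 was at -0.92 (95% interval -0.96 to -0.88), Col3a1 at -0.90 (95% interval -0.94 to -0.86), Col1a1 at -0.81 (95% interval -0.84 to -0.77), Col5a1 at -0.65 (95% interval -0.77 to -0.53) and Col5a2 at -0.65 (95% interval -0.74 to -0.55). None of these passed 2-fold. Over all 21 members measured 1 fell, Col12a1, and 0 rose, against 1.76% and 5.67% of all genes. In cells with at least 2500 UMIs the sum was at -0.89 (95% interval -0.91 to -0.86) and Col1a1 at -1.0 (95% interval -1.05 to -0.96), just past the limit. Taken as the mean of each cell's own CPM the sum was at -0.34. The ratio is of 1 library to 1 library, and genotype cannot be told apart from the lower depth and the leukocyte markers of the KO 72 h library.

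Different clusters held the fibroblasts of different libraries, so levels were also read within 2 sets of the 6 fibroblast clusters. The sets were drawn after the data were seen, by the activation markers Postn, Cthrc1, Tnc, Ltbp2, Timp1 and Acta2. The sets split at the midpoint of the clusters' mean log level of these markers. Clusters 13 and 29 had Cthrc1, Tnc and Timp1 among their 10 leading genes, which are known from fibroblasts of healing infarcts, beside Col1a1, Col1a2 and Col3a1 themselves, although collagens did not enter the clustering. They held 21, 31, 61, 74, 103 and 829 cells in the WT sham, KO sham, WT 24 h, KO 24 h, WT 72 h and KO 72 h libraries. That is 5.61, 6.94, 30.8, 40.4, 70.1 and 77 percent of fibroblasts. The KO 72 h cells of this set came mostly from cluster 13, with 793 of 829 cells, while 71 of the 103 WT 72 h cells lay in cluster 29. The other 4 clusters (12, 32, 60 and 63) were led by genes such as Clec3b, Dpep1, Gsn, Dkk3 and Lum. Postn did not follow the split: it was among the 10 leading genes of cluster 32 and stood at 739 CPM there, above the 663 and 499 CPM of clusters 13 and 29. The other 4 clusters held 353, 416, 137, 109, 44 and 248 cells. Of the 248 KO 72 h cells, 161 lay in cluster 60 and 58 in cluster 63, clusters with medians of 846.5 and 1532.5 UMIs, and 27 in cluster 12. Cluster 12 held 97 of the 109 KO 24 h cells and 35 of the 44 WT 72 h cells. After sham, cluster 32 held 49 WT and 112 KO cells. Ratios in this set that use the KO 72 h library thus compare mostly different clusters, and the part of this mix was not tested.

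The time course of fibrillar collagen was wide in the Cthrc1-Tnc-Timp1 set of both genotypes. In the other set it was present in WT and small in KO, whose 24 h and 72 h cells lay mostly in different clusters. In the Cthrc1-Tnc-Timp1 set the fibrillar sum was 3828 and 4813 CPM after sham, 1594 and 2004 at 24 h and 22473 and 13392 at 72 h, so its cells lay below the other fibroblasts after sham and at 24 h and above them at 72 h. In the other set it was 7919 and 6541 CPM after sham, 4889 and 6081 at 24 h and 14309 and 6508 at 72 h. At 72 h against 24 h the log2 ratio in the Cthrc1-Tnc-Timp1 set was 3.82 (95% interval 3.75 to 3.89) in WT and 2.74 (95% interval 2.68 to 2.80) in KO. For Col1a1 alone it was 4.60 (95% interval 4.45 to 4.75) and 3.26 (95% interval 3.15 to 3.37). The other set gave 1.55 (95% interval 1.5 to 1.60) in WT and 0.10 (95% interval 0.03 to 0.16) in KO, or 0.67 (95% interval 0.60 to 0.75) in KO cells with at least 2500 UMIs, of which there were 29.

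**Figure D4:**
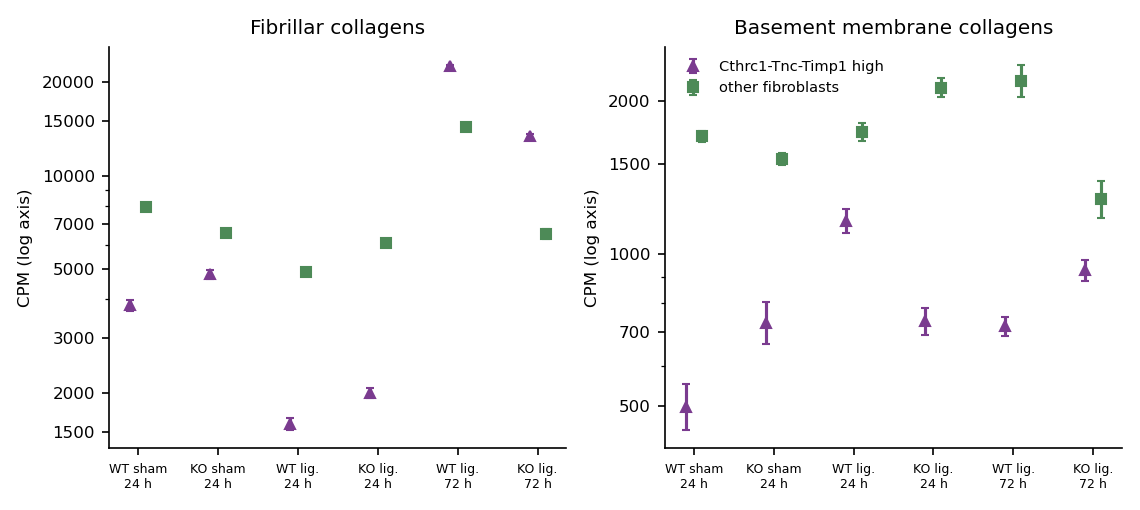
Summed level (CPM, log axis) of fibrillar collagens (left) and basement membrane collagens (right) in the 6 libraries, for the Cthrc1-Tnc-Timp1 high fibroblast clusters (triangles) and the other fibroblast clusters (squares), with 95% counting intervals. Triangles lie under squares in all 6 libraries on the right, and cross above them at 72 h on the left.

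Within the Cthrc1-Tnc-Timp1 set the KO against WT log2 ratio of the fibrillar sum was 0.33 (95% interval 0.25 to 0.41) after sham, 0.33 (95% interval 0.25 to 0.42) at 24 h and -0.75 (95% interval -0.77 to -0.73) at 72 h. In the other set it was -0.28 (95% interval -0.30 to -0.25), 0.31 (95% interval 0.26 to 0.37) and -1.14 (95% interval -1.20 to -1.07). In cells with at least 2500 UMIs the 72 h ratio was -0.88 (95% interval -0.91 to -0.86) in the Cthrc1-Tnc-Timp1 set and -0.58 (95% interval -0.66 to -0.51) in the other. The cut did not match depth in the Cthrc1-Tnc-Timp1 set, where the median was 36613 UMIs in WT and 3805 in KO. In the other set the medians were 7166.5 and 7067 UMIs. The 24 h level below sham also held inside both sets in WT, at -1.26 (95% interval -1.35 to -1.18) and -0.70 (95% interval -0.73 to -0.66). In KO it was -1.26 (95% interval -1.34 to -1.19) in the Cthrc1-Tnc-Timp1 set and -0.11 (95% interval -0.15 to -0.06) in the other. The sham part of the Cthrc1-Tnc-Timp1 set is small, with 21 and 31 cells.

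The collagens outside the fibrillar and basement membrane groups took several courses in fibroblasts. Their sum was 1902 and 1724 CPM after sham, 1035 and 1112 at 24 h and 1505 and 1375 at 72 h. At 72 h it was 1394 and 1281 CPM in the Cthrc1-Tnc-Timp1 set and 2451 and 1744 CPM in the other. In cells with at least 2500 UMIs these were 1403 and 1250 CPM, and 2449.5 and 2824 CPM, so the order of the genotypes turned in the other set. Over the whole fibroblast class, type VI chains, which form the beaded microfibrils around cells, were highest after sham and stayed low at 72 h. Col6a1 was at 659.6 and 552 CPM after sham, 289 and 281 at 24 h and 277 and 301 at 72 h, Col6a2 at 462 and 443 CPM after sham, 243 and 239 at 24 h and 179 and 222 at 72 h and Col6a3 at 352 and 324 CPM after sham, 175 and 261 at 24 h and 252 and 278 at 72 h. In WT at 24 h against sham Col6a1 fell 2.28-fold (log2 ratio -1.19, 95% interval -1.31 to -1.07) and Col6a3 2.01-fold (-1.01, 95% interval -1.16 to -0.85), and the KO values were -0.97 and -0.31. At 72 h against 24 h Col6a1 was at -0.06 (95% interval -0.20 to 0.08) in WT and 0.09 (95% interval -0.06 to 0.25) in KO, so its level at 72 h stayed near that at 24 h. Inside the Cthrc1-Tnc-Timp1 set, however, Col6a1 rose from 68.6 to 213 CPM in WT and from 49.5 to 236 CPM in KO. In the other fibroblasts it went from 464 to 818 CPM in WT, where sham was at 765 CPM. In KO it went from 623 to 553 CPM there, or from 624 to 852 CPM in cells with at least 2500 UMIs. The Cthrc1-Tnc-Timp1 set, lower in Col6a1 in every library, made up 30.8% of WT fibroblasts at 24 h and 70.1% at 72 h.

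Col6a6, a further type VI chain, was one of 2 members past 2-fold between genotypes in fibroblasts. It was at 57.3 and 25.4 CPM after sham, 8.08 and 13.5 at 24 h and 13.1 and 15 at 72 h. WT sham was the highest of the 6 libraries, with 232 UMIs against 111 in KO sham, and the KO to WT log2 ratio was -1.17 (95% interval -1.51 to -0.84). Its largest barcode held 2.59% and 3.60% of those UMIs. At 24 h it fell 7.09-fold in WT (-2.83, 95% interval -3.54 to -2.18) and was at -0.92 in KO, and the WT and KO levels at 24 h, from 21 and 32 UMIs, had overlapping intervals.

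Fibril-associated chains rose from 24 h to 72 h, as the fibrillar chains did. Col12a1 and Col14a1 encode homotrimers that bind the surface of type I fibrils. Col12a1 was at 19.8 and 27.5 CPM after sham, 20.8 and 14.7 at 24 h and 107 and 51.8 at 72 h and Col14a1 at 115 and 128 CPM after sham, 40 and 31.6 at 24 h and 161 and 112 at 72 h. From 24 h to 72 h Col12a1 rose 5.14-fold in WT (log2 ratio 2.36, 95% interval 1.94 to 2.80) and 3.51-fold in KO (1.81, 95% interval 1.25 to 2.40), and Col14a1 rose 4.01-fold (2.0, 95% interval 1.70 to 2.32) and 3.53-fold (1.82, 95% interval 1.44 to 2.21). The difference between them lay at 24 h: Col14a1 fell 2.87-fold in WT (-1.52, 95% interval -1.84 to -1.21) and 4.05-fold in KO (-2.02, 95% interval -2.39 to -1.67), while Col12a1 was at 0.07 (95% interval -0.45 to 0.59) and -0.90 (95% interval -1.49 to -0.34). At 72 h Col12a1 was 2.06-fold lower in KO (-1.05, 95% interval -1.36 to -0.74), and at -0.89 (95% interval -1.29 to -0.51) in cells with at least 2500 UMIs, inside the limit.

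Col16a1, also a fibril-associated chain, was at 34.3 and 35.5 CPM after sham, 21.6 and 18.5 at 24 h and 74.2 and 50.8 at 72 h in fibroblasts. It rose from 24 h to 72 h in both genotypes, at 1.78 (95% interval 1.36 to 2.23) in WT and 1.46 (95% interval 0.94 to 1.99) in KO. Summed over libraries it was slightly higher in mesothelial cells, where it stood at 38.2 and 48.5 CPM after sham, 22.2 and 0 at 24 h and 48.7 and 59.1 at 72 h from 0 to 32 UMIs. Col8a1, the α1 chain of type VIII, was higher at each later time over the whole class. It was at 194 and 175 CPM after sham, 229 and 247 at 24 h and 435 and 337 at 72 h, with log2 ratios of 0.24 in WT and 0.5 in KO at 24 h against sham and 0.93 (95% interval 0.79 to 1.07) and 0.45 (95% interval 0.29 to 0.61) at 72 h against 24 h, each under 2-fold. Within the 2 cluster sets the order held in WT but not in KO. The KO levels were 317, 245 and 379 CPM after sham, at 24 h and at 72 h in the Cthrc1-Tnc-Timp1 set. In the other set they were 152, 250 and 172 CPM, the last being 335 CPM in cells with at least 2500 UMIs.

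Basement membrane collagens in fibroblasts took another course than the fibrillar chains. Their sum was 1494 and 1428 CPM after sham, 1482 and 1298 at 24 h and 873 and 998 at 72 h, with type IV highest in the WT 24 h library. In cells with at least 2500 UMIs at 72 h it was 721 and 836 CPM in the Cthrc1-Tnc-Timp1 set and 2166 and 2164 CPM in the other. Col4a1 and Col4a2 encode the 2 chains of the common α1α1α2(IV) trimer, and their genes lie head to head on chromosome 8, with starts 21 bases apart in the RefSeq table for GRCm38.p6. In fibroblasts Col4a1 was at 636 and 638 CPM after sham, 866 and 707 at 24 h and 325 and 384 at 72 h and Col4a2 at 249 and 248 CPM after sham, 377 and 297 at 24 h and 163 and 191 at 72 h. Between 24 h and 72 h both fell in WT, Col4a1 2.67-fold (log2 ratio -1.42, 95% interval -1.52 to -1.31) and Col4a2 2.32-fold (-1.21, 95% interval -1.37 to -1.06). In KO they were at -0.88 (95% interval -1.0 to -0.76) and -0.64 (95% interval -0.82 to -0.47), under 2-fold, and at -0.76 and -0.42 in cells with at least 2500 UMIs.

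Where the type IV transcripts lay differed between the 2 fibroblast sets. Col4a1 was at 208 and 383 CPM after sham, 733 and 419.7 at 24 h and 262 and 357 at 72 h in the Cthrc1-Tnc-Timp1 set and at 727 and 678 CPM after sham, 972 and 1130.0 at 24 h and 859 and 488 at 72 h in the other, where it was higher in every library. At 24 h against sham the sum of basement membrane chains in the Cthrc1-Tnc-Timp1 set was at a log2 ratio of 1.22 (95% interval 1.05 to 1.39) in WT and 0.01 (95% interval -0.15 to 0.17) in KO. The later step, 72 h against 24 h, gave -0.69 (95% interval -0.79 to -0.59) and 0.33 (95% interval 0.22 to 0.45) there, and 0.33 (95% interval 0.22 to 0.45) and -0.73 (95% interval -0.87 to -0.60) in the other fibroblasts, the last being 0.02 (95% interval -0.13 to 0.17) in cells with at least 2500 UMIs.

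Several of the minor basement membrane chains fell in fibroblasts at 24 h. Col15a1, whose product links basement membrane to fibrils, was at 489 and 438 CPM after sham, 187 and 252 at 24 h and 341 and 377 at 72 h and fell 2.62-fold in WT (log2 ratio -1.39, 95% interval -1.54 to -1.25). In KO its ratio was -0.80 (95% interval -0.93 to -0.66). Col4a5, of the α3α4α5 and α5α5α6 networks, fell in both, at -1.67 (95% interval -2.24 to -1.14) and -2.08 (95% interval -2.79 to -1.43), from 43 and 39.2 CPM after sham, 13.5 and 9.27 at 24 h and 22.3 and 20.4 at 72 h, and rose in KO from 24 h to 72 h (1.14, 95% interval 0.37 to 1.95). Col4a4 was at 43.2 and 31.6 CPM after sham, 22.3 and 15.6 at 24 h and 7.63 and 9.99 at 72 h. It fell in KO at 24 h (-1.02, 95% interval -1.58 to -0.49) and in WT from 24 h to 72 h (-1.55, 95% interval -2.29 to -0.85). Its trimer partner Col4a3, at 11.1 and 9.39 CPM after sham, 6.16 and 3.79 at 24 h and 1.83 and 2.27 at 72 h, fell in KO at 24 h (-1.31, 95% interval -2.54 to -0.25). Col18a1 was scarce in fibroblasts, at 16.8 and 14.7 CPM after sham, 8.08 and 11 at 24 h and 11.6 and 10.4 at 72 h, and fell in WT at 24 h (-1.05, 95% interval -1.84 to -0.33) on 21 against 68 UMIs.

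Summed over libraries, endothelial cells were the main source of Col4a1 and Col4a2 mRNA. In the KO 72 h library they held 1004 of 3579 deposited Col4a1 UMIs, against 845 in fibroblasts. Endothelial cells numbered 2090.0, 2863, 597, 607, 199 and 253 in the 6 libraries, in the order used above, and the 9 endothelial markers summed to 19706 to 44533 CPM. In the KO 72 h library the class also carried 3654 CPM of the 11 monocyte and macrophage markers, all detected, against 79.9 to 182 CPM elsewhere, and their part was not tested. Over the whole class the summed level of basement membrane collagens was 2047 and 2149 CPM after sham, 2661 and 2315 at 24 h and 3291 and 2851 at 72 h. Levels within its clusters, given below, took other courses. Col4a1 stood at 1255 and 1314 CPM after sham, 1604 and 1352 at 24 h and 1731 and 1612 at 72 h and Col4a2 at 699 and 765 CPM after sham, 983 and 896 at 24 h and 1061 and 860.4 at 72 h. Both were lowest in a sham library, and neither differed by 2-fold in any of the 7 comparisons.

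The summed basement membrane level of endothelial cells was close between genotypes. KO against WT it was at a log2 ratio of 0.07 (95% interval 0.04 to 0.10) after sham, -0.20 (95% interval -0.25 to -0.15) at 24 h and -0.21 (95% interval -0.29 to -0.13) at 72 h, the last being 0.16 (95% interval 0.07 to 0.25) in cells with at least 2500 UMIs. No member passed 2-fold between genotypes, out of 9 measured after sham, 5 at 24 h and 4 at 72 h. Of all genes 0.439%, 0.739% and 2.87% were higher in KO and 0.572%, 0.964% and 2.39% lower. Over time the sum was at 0.38 (95% interval 0.34 to 0.42) in WT and 0.11 (95% interval 0.06 to 0.15) in KO at 24 h against sham, and at 0.31 (95% interval 0.25 to 0.36) and 0.30 (95% interval 0.22 to 0.38) at 72 h against 24 h. Of these ratios 3 turned their direction under other settings: KO against WT at 72 h ran from -0.90 to 0.16, KO 24 h against sham from -0.0175 to 0.13, and KO 72 h against 24 h from -0.37 to 0.67.

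The 2 members that rose in endothelial cells between 24 h and 72 h were Col15a1 and Col18a1, in both genotypes. In WT 2 of 5 measured members rose, against 3.2% of all genes, and 0 fell (8.21%). In KO 2 of 4 rose (3.65%) and 0 fell (5.53%). Col15a1 was at 56.6 and 41.2 CPM after sham, 39.8 and 28.8 at 24 h and 269 and 212 at 72 h, so both 72 h libraries lay far above the other 4. It rose 6.76-fold in WT (log2 ratio 2.76, 95% interval 2.44 to 3.08) and 7.35-fold in KO (2.88, 95% interval 2.42 to 3.35). Col18a1, the source of endostatin, was at 35.8 and 27.7 CPM after sham, 33.7 and 38 at 24 h and 230.0 and 164 at 72 h and rose 6.82-fold (2.77, 95% interval 2.43 to 3.12) and 4.31-fold (2.11, 95% interval 1.66 to 2.56). In cells with at least 2500 UMIs the KO ratios were 3.26 and 2.58, from 57 cells at 72 h.

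**Figure D5:**
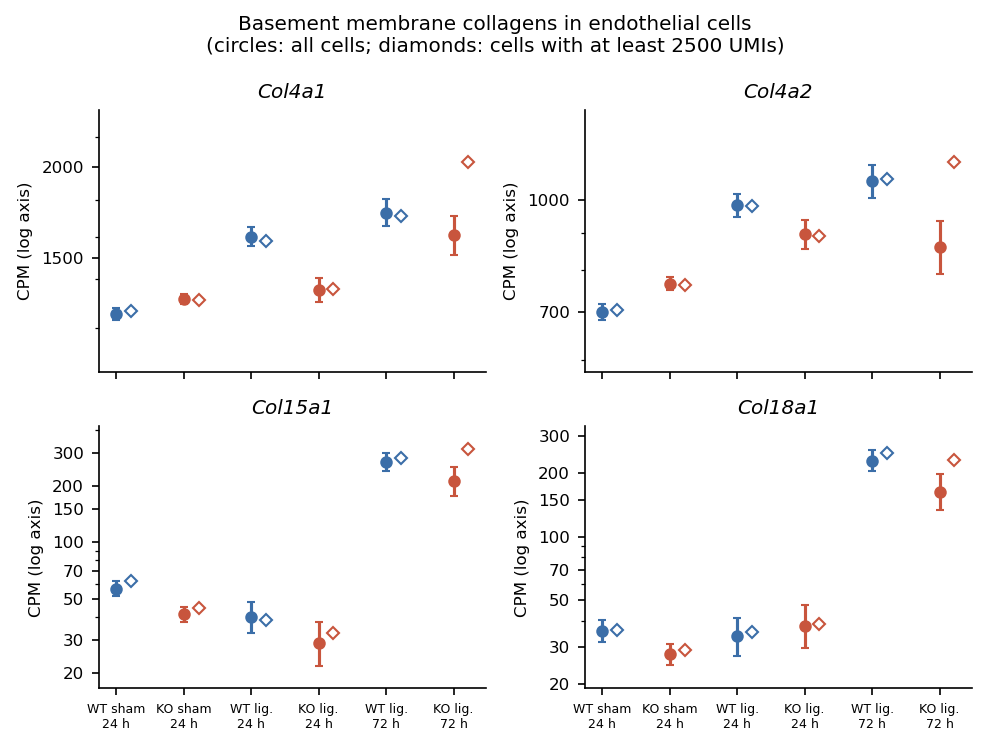
Level in endothelial cells (CPM, log axis) of Col4a1, Col4a2, Col15a1 and Col18a1 in the 6 libraries, WT in blue and KO in red, with filled circles for all kept cells with 95% counting intervals and open diamonds for cells with at least 2500 UMIs. Col15a1 and Col18a1 lie at 212 CPM or more and 164 CPM or more at 72 h, and at 56.6 CPM or less in the other 4 libraries, counted over all kept cells.

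The mix of endothelial clusters differed between libraries. Cluster 17 was led by Apln and Pgf, genes known from sprouting endothelium, with Col4a1 and Col4a2 among its 10 leading genes. It held 5.55% and 4.82% of endothelial cells after sham, 28% and 23.7% at 24 h, and 36.2% and 14.2% at 72 h. In the KO 72 h library 54.9% lay in cluster 42, of median depth 979 UMIs, which held 1 cell from the other libraries. The basement membrane sum in cluster 17 was 4085 and 3477 CPM after sham, 3326 and 3150 at 24 h and 3720 and 4387 at 72 h. In cluster 0 it was 1896 and 2034 CPM after sham, 2212 and 1876 at 24 h and 2216 and 2364 at 72 h. In cluster 4 it was 1756 and 2055, 2514 and 2137, and 2364 and 2451 CPM. Cluster 42 had a sum of 792 CPM in the KO 72 h library. The part of this mix in the class level was not tested. Within cluster 17 Col15a1 was at 73.5 CPM (95% interval 56.6 to 93.9) at 24 h and 331 CPM (295 to 371) at 72 h in WT, and at 57.9 and 391 CPM in KO. Within cluster 0, led by the capillary genes Aqp1, Car4 and Gpihbp1, Col15a1 went from 28.6 to 170.5 CPM in WT and from 25.3 to 133 CPM in KO. Clusters 0 and 17 were thus both higher in Col15a1 at 72 h. Cluster 4, led by the arterial genes Sema3g, Hey1 and Sox17, did not show this: it was at 14.2 and 13.9 CPM in WT, on 13 and 1 UMIs, and had 0 UMIs at both times in KO. Cluster 27, led by interferon-response genes such as Ifit3, was at 90.9 and 59.1 CPM in WT, on 8 and 5 UMIs. Cluster 42 was at 59.9 CPM in the KO 72 h library. Col18a1 in cluster 17 was at 47.1 and 76.1 CPM at 24 h and 310.0 and 276 CPM at 72 h. In cluster 0 it had 0 UMIs at both times in WT, and in KO it was at 4.81 CPM (95% interval 1.31 to 12.3) at 24 h and 49.9 CPM (18.3 to 109) at 72 h, on 4 and 6 UMIs. In cluster 4 it was at 58 CPM (95% interval 43.4 to 75.9) at 24 h and 125 CPM (57.2 to 238) at 72 h in WT. In KO it was at 55.4 CPM (35.8 to 81.7) and 140.5 CPM (64.2 to 267) there. The 72 h values rest on 9 UMIs each, and the intervals of the 2 times overlap in both genotypes.

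In the step from sham to 24 h 1 of 6 measured members rose in WT endothelial cells (3.59% of all genes) and 0 fell (2.41%), and 2 of 7 fell in KO (1.88%) and 0 rose (3.22%). All 3 calls were of scarce transcripts. Col28a1, at 4.99 and 6.04 CPM after sham, 11 and 2.02 at 24 h and 0.79 and 4.82 at 72 h, rose in WT and fell in KO, with 39 and 70 UMIs after sham and 31 and 4 at 24 h. Col3a1 fell in KO, on 51 and 3 UMIs, at 4.40 and 1.52 CPM (-1.54, 95% interval -3.86 to 0.09), an interval that includes 0. KO neutrophils, which should lack the gene, were at 8.43 and 1.69 CPM. Detection of Col4a1 was widespread: the shares of endothelial cells with a UMI of it were 87.9, 91.4, 94.8, 88.3, 89.9 and 57.3 percent, and 61, 63.1, 72.4, 64.3, 69.3 and 55.4 percent after thinning to 1000 UMIs, against 0.315 to 2.84 percent of neutrophils.

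Pericytes, the mural cells of capillaries, had the highest level of the type V chain Col5a3, and the highest type IV levels after endothelial cells. They numbered 87, 91, 56, 89, 40 and 378 in the 6 libraries. Col5a3 was at 232 and 252 CPM after sham, 291 and 293 at 24 h and 180.0 and 80.1 at 72 h there, from 40 to 87 UMIs, and at 172 and 135 CPM after sham, 109 and 104 at 24 h and 162 and 134 at 72 h in fibroblasts. In KO pericytes 5 of 10 measured members fell from 24 h to 72 h and 0 rose, where 17% of all genes fell and 9.69% rose. Col5a3 fell 3.65-fold (log2 ratio -1.87, 95% interval -2.45 to -1.31), and the others were Col6a1, Col6a2, Col4a1 and Col4a2. The KO 72 h pericytes had a median of 914.5 UMIs and carried 11316 CPM of monocyte and macrophage markers and 4449 CPM of pericyte markers, against 208 and 15526 CPM at 24 h in KO, and their part was not tested. With at least 2500 UMIs, in 29 cells, Col5a3 stood at 154 CPM. Col4a1 in pericytes was at 1199 and 1129.6 CPM after sham, 1066 and 1102 at 24 h and 1513 and 549 at 72 h and fell in the same comparison (-1.01, 95% interval -1.24 to -0.77), but its direction turned in the 29 cells with at least 2500 UMIs (0.30).

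The remaining pericyte comparisons held few calls. From sham to 24 h 3 of 9 fell in WT (Col1a1, Col1a2 and Col3a1; 4.32% of all genes) and 0 rose (6.92%), and 1 of 10 fell in KO (Col1a2; 1.64%) and 0 rose (3.28%). KO against WT 0 of 10 passed after sham (2.07% of all genes higher and 1.76% lower), and at 24 h 2 of 8 were higher (Col1a1 and Col3a1; 2.19%) and 0 lower (3.12%). The WT pericytes carried 21809 CPM of erythroid, 141 CPM of monocyte and macrophage and 33.6 CPM of platelet markers after sham, and 20, 1995 and 2863 CPM at 24 h. Fibroblast markers in them summed to 588 and 468 CPM. The part of these in the pericyte results was not tested. In the KO against WT comparison at 24 h 1 KO cell held 60% of the 80 Col3a1 UMIs.

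Chains of type IV beyond α1 and α2 had their highest CPM, summed over libraries, in smaller classes. Fibroblasts, a larger class, still held most of their UMIs: 57.4% for Col4a4, 58.7% for Col4a3, 65.1% for Col4a5 and 59% for Col4a6. After sham Col4a5 was higher in fibroblasts than in mesothelial cells. Col4a4 was highest in endocardial cells, the lining of the heart's chambers, at 124 and 93.4 CPM after sham, 71.3 and 39 at 24 h and 72.5 and 50.1 at 72 h from 10 to 103 UMIs, as was Col4a3 (21.9 CPM summed over libraries). The genes are neighbours, at chr1:82586921-82722059 and chr1:82448423-82586849 on opposite strands. Col4a5 was highest in mesothelial cells (28.6 and 20 CPM after sham, 13.3 and 0 at 24 h and 65.4 and 48.6 at 72 h, 0 to 43 UMIs) and nearly the same in smooth muscle cells (48.8 and 47.6 CPM after sham, 29.7 and 27.9 at 24 h and 27.6 and 30.3 at 72 h, 3 to 65 UMIs), at 42.7 and 42.5 CPM summed over libraries. In endocardial cells 1 of 9 measured members was past 2-fold between genotypes after sham, Col3a1, lower in KO (1.83% of all genes lower and 1.36% higher), and 1 cell held 48% of its 100 WT UMIs. The neighbour of Col4a5 on the X chromosome, Col4a6, was likewise at 10.5 CPM in smooth muscle and 10.4 CPM in mesothelial cells and had 0 UMIs in endothelial cells.

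Summed over libraries, Col18a1 was highest in lymphatic endothelial cells, followed by smooth muscle. The order did not hold in each library: in WT at 24 h smooth muscle was above lymphatic endothelial cells. At 72 h Col18a1 was higher in endothelial cells than in smooth muscle in both genotypes. In lymphatic endothelial cells, of which there were 40, 30, 18, 15, 16 and 151, it stood at 258 and 240.3 CPM after sham, 83.8 and 121 at 24 h and 654 and 169.9 at 72 h, highest in the WT 72 h library. No ratio is given for that class, which had under 50 cells in 5 libraries. In smooth muscle cells Col18a1 was at 92.7 and 125 CPM after sham, 327 and 77.6 at 24 h and 20.7 and 40.4 at 72 h. It rose 3.52-fold at 24 h against sham in WT (log2 ratio 1.82, 95% interval 1.43 to 2.20), where 3.31% of all genes rose and 2.67% fell. In KO it was at -0.68 (95% interval -1.35 to -0.07). KO against WT at 24 h it was 4.21-fold lower (-2.07, 95% interval -2.75 to -1.45), with 3.8% of all genes lower and 1% higher. The WT 24 h value came from 143 UMIs in 50 cells, of which 1 cell held 27.3%. Col18a1 was the 1 of 5 measured members that rose in WT, with 0 falling. In KO 1 of 6 fell at 24 h, Col3a1 (2.39% of all genes), and 0 rose (1.2%). KO against WT, 1 of 8 was lower after sham, Col14a1 (0.807% lower and 0.649% higher), and 2 of 4 at 24 h, Col18a1 and Col4a2.

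Mesothelial cells, the epicardial covering, had the fibrillar levels nearest to those of fibroblasts when summed over libraries. Within each library they were lower. Their fibrillar sum was 2248 and 3489 CPM after sham, 1592 and 0 at 24 h and 12034 and 7390.4 at 72 h, against 7204 and 6304 CPM after sham, 3427 and 3654 at 24 h and 21617 and 11996 at 72 h in fibroblasts, with the highest level again in the WT 72 h library. They numbered 9, 19, 9, 2, 18 and 225, so that 225 of the 282 came from the KO 72 h library, where 19 had at least 2500 UMIs. In those 19 the fibrillar sum was 7274 CPM.

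Of the remaining members, Col23a1, a transmembrane collagen, stood at 50.6 and 55.8 CPM after sham, 8.82 and 72.6 at 24 h and 74.3 and 36.9 at 72 h in lymphatic endothelial cells and 35.2 CPM in endocardial cells summed over libraries. Col11a2 was the only fibrillar chain highest in neutrophils, at 4.68 and 7.14 CPM after sham, 2.38 and 5.48 at 24 h and 9.71 and 2.65 at 72 h from 3 to 52 UMIs. It was 2.30-fold higher in KO than in WT at 24 h (log2 ratio 1.20, 95% interval 0.21 to 2.34), where 1.97% of all genes were higher, and lower at 72 h than at 24 h in KO (-1.05, 95% interval -3.37 to 0.58), an interval that includes 0, where 5.5% were lower. Col13a1, Col9a3, Col7a1, Col20a1 and Col26a1 had 53 to 134 UMIs and reached at most 5.87 CPM in any class summed over libraries.

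The proportions of partner chains were read from the same cells. Type I collagen holds α1 and α2 chains, and the ratio of Col1a1 to Col1a2 UMIs in fibroblasts was 0.907 and 0.834 after sham, 0.935 and 0.986 at 24 h and 1.16 and 1.26 at 72 h. It was therefore highest in the 2 libraries of 72 h. In cells with at least 2500 UMIs the KO 72 h ratio was 1.05 (95% interval 1.01 to 1.10), below the 1.16 (95% interval 1.14 to 1.18) of WT, so the order of the genotypes at 72 h turned. The ratio of Col3a1 to Col1a1 went the other way, at 1.80 and 1.58 after sham, 1.36 and 1.37 at 24 h and 0.931 and 0.872 at 72 h, with 0.931 (95% interval 0.914 to 0.949) in WT and 0.998 (95% interval 0.955 to 1.04) in KO at 72 h in the deeper cells, where the genotypes' order turned as well. For Col4a1 to Col4a2 it was 2.56 and 2.57 after sham, 2.30 and 2.38 at 24 h and 2 and 2.01 at 72 h in fibroblasts and 1.79 and 1.72 after sham, 1.63 and 1.51 at 24 h and 1.63 and 1.87 at 72 h in endothelial cells, so fibroblasts had more Col4a1 per Col4a2 in every library. In the deeper cells of KO 72 h these were 1.88 (95% interval 1.61 to 2.20) in fibroblasts and 1.80 (95% interval 1.60 to 2.03) in endothelial cells, whose intervals overlap. These are ratios of captured 3′ tags, and the capture of each transcript was not measured.

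Likeness of profile was described over 68 combinations of class and library with at least 50 cells, by Pearson's r of log2(CPM + 10). The combinations share libraries and depth, so no p is given. The 3 genes most like Col1a1 were Col3a1 (r = 0.960), Col5a1 (0.953) and Tmem45a (0.921). Those most like Col4a1 were Col4a2 (0.988), Ehd2 (0.953) and Sparc (0.952).

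Other genes of collagen synthesis and turnover were read in fibroblasts. Of 18 measured genes for chain hydroxylation and folding, 7 rose and 1 fell from 24 h to 72 h in WT and 10 did not pass, where 6.19% of all genes rose and 15.9% fell, with a median log2 ratio of 0.74 against -0.26 over all genes. In KO 0 of 17 passed 2-fold, with a median of 0.03. The largest values of the list were those of P4ha3, a prolyl 4-hydroxylase subunit (5.64, 95% interval 3.76 to 8.70 in WT, on 126 against 2 UMIs), and Serpinh1, the collagen chaperone HSP47 (1.90). Its smallest were Colgalt2 in KO at 24 h against sham (-1.24) and the prolyl 3-hydroxylase P3h1 in KO against WT at 72 h (-1.17). In that comparison 4 of 18 were lower in KO by 2-fold (1.76% of all genes) and 0 higher (5.67%), with a median of -0.59 against -0.04. In cells with at least 2500 UMIs 0 passed 2-fold there, and the median was -0.51. At 24 h against sham 0 of 18 passed in WT, where 4.77% of all genes rose and 4.6% fell. In KO 0 rose (3.83% of all genes) and 1 of 19 fell (9.31%). KO against WT 1 of 19 was higher after sham (0.974% of all genes). At 24 h 0 of 17 passed (0.586% of all genes higher and 2.46% lower).

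Of 9 measured genes for procollagen cleavage and cross-linking, 4 rose in WT and 3 in KO from 24 h to 72 h, and 0 fell, where 6.19% and 7.19% of all genes rose and 15.9% and 6.46% fell, with medians of 0.66 and 0.77. The lysyl oxidase relative Loxl3 had the 2 largest values of the list, 2.76 in WT and 2.01 in KO. The 2 smallest were Pcolce2 in KO at 24 h against sham (-0.88) and the procollagen C-proteinase Bmp1 in KO against WT at 72 h (-0.84). Lox, which cross-links fibrils, rose already at 24 h against sham, at 1.48 in WT and 1.13 in KO, while the fibrillar chains were lower. It was the only 1 of 9 past 2-fold in each, where 4.77% and 3.83% of all genes rose and 4.6% and 9.31% fell. In KO against WT at 72 h 1 of 9 was higher, Tgm2 (5.67% of all genes), and 0 were lower (1.76%). In cells with at least 2500 UMIs 0 of 9 passed. After sham and at 24 h 0 of 9 passed between genotypes.

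Matrix proteins that bind fibrils were mixed. Between 24 h and 72 h 4 of 13 rose and 3 fell in WT (6.19% and 15.9% of all genes), and 3 of 12 rose and 2 fell in KO (7.19% and 6.46%). Fn1, fibronectin, had the 2 largest values, 4.40 in KO and 3.64 in WT, and the proteoglycan Fmod the 2 smallest, -3.13 in KO at 24 h against sham and -2.36 in KO against WT at 24 h, the latter on 10 against 56 UMIs. At 24 h against sham 1 of 13 rose in each genotype, Tnc, while 2 fell in WT and 4 in KO, where 4.77% and 3.83% of all genes rose and 4.6% and 9.31% fell. KO against WT, 1 of 13 was higher after sham (0.974% of all genes) and 1 of 13 lower at 24 h (2.46%). At 72 h 0 of 12 passed.

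Genes of collagen breakdown and uptake included inhibitors as well as proteases. Of 10 measured, 3 rose and 4 fell from 24 h to 72 h in WT (6.19% and 15.9% of all genes), and 2 rose and 2 fell in KO (7.19% and 6.46%). The protease Mmp9 had the 2 largest values, 4.43 in KO against WT at 72 h and 3.87 in WT at 24 h against sham, on 130 against 9 and 47 against 5 UMIs. The 2 smallest were Mmp3 in KO at 72 h against 24 h (-3.12) and Mmp9 in WT over the same step (-2.72). Mmp9 is a gene of neutrophils and macrophages, whose markers were also highest in KO 72 h fibroblasts, and their part was not tested. At 24 h against sham 2 of 10 rose and 1 fell in WT (4.77% and 4.6% of all genes), 1 of 9 rose and 3 fell in KO (3.83% and 9.31%), and Timp1, an inhibitor of these proteases, rose in both (1.58 and 1.88). KO against WT 0 of 9 passed after sham and at 24 h. At 72 h 1 of 10 was higher, Mmp9 (5.67% of all genes), and 1 lower, Mmp3 (1.76%).

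Of 10 collagen receptors, 4 to 7 were measured in a comparison. Between 24 h and 72 h 0 of 4 rose and 1 fell in WT (6.19% and 15.9% of all genes), and 3 of 7 rose and 0 fell in KO (7.19% and 6.46%). The 2 largest values were of leukocyte receptors, Lair1 in KO against WT at 72 h (5.48, 95% interval 3.56 to 8.56, 60 against 2 UMIs) and Mrc1 in KO at 72 h against 24 h (5.45, 95% interval 3.55 to 8.52, 81 against 2 UMIs), in the library with 4205 CPM of monocyte and macrophage markers in its fibroblasts. The 2 smallest were the fibrillar collagen receptor Ddr2 in WT at 72 h against 24 h (-1.45) and the integrin Itga1 in KO at 24 h against sham (-1.35). From sham to 24 h 2 of 5 fell in each genotype, where 4.6% of all genes fell in WT and 9.31% in KO, and 0 rose. KO against WT 2 of 7 were higher at 72 h, Lair1 and Mrc1, where 5.67% of all genes were higher, 0 of 5 with at least 2500 UMIs, and 0 passed after sham or at 24 h.

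Of the other basement membrane genes, laminins, nidogens and perlecan among them, 3 of 10 fell from 24 h to 72 h in WT and 0 rose, where 15.9% of all genes fell and 6.19% rose. Their median was -0.71 against -0.26 over all genes. In KO 0 of 9 passed, with a median of -0.57 against -0.15. Lama2 (-1.81) and Lamc1 (-1.39) were the smallest values and Nid2 in KO against WT at 72 h (0.87) and Pxdn in WT at 72 h against 24 h (0.77) the largest. At 24 h against sham 1 of 10 fell in WT (4.6% of all genes) and 2 of 10 in KO (9.31%), with 0 rising, and 0 passed between genotypes at any time among all kept cells.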

How the data were processed

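The 6 libraries (1 per group, each from 4 pooled mice) of non-cardiomyocyte ventricle cells were used as deposited UMI counts per gene and cell. Per the submitters' processing notes, they were made with Cell Ranger 6.0.0 on mm10. Cells with at least 200 genes and at most 20% mitochondrial UMIs were kept, and the highest doublet scores were removed at 0.8% per 1000 cells, since the automatic call marked 0 to 19 cells a library. Cells were clustered with scanpy 1.11.5 and leidenalg 0.10.2 (2000 variable genes without collagens, 30 components, 20 neighbours, resolution 1). The 63 clusters were named from fixed marker lists, and 14 stayed unnamed. UMIs were summed per class and library and set per 1000000 UMIs (CPM). Ratios carry exact conditional 95% intervals of 2 Poisson counts (scipy 1.17.1), which cover counting error only. A count of 0 was set to a floor of 3 UMIs for bounds. There is no replicate, hence no p-value. The ratio script was tested on simulated data. Members and lists were chosen with earlier results of these data known. Levels per library are given for the 6 fibrillar, 5 basement membrane and 8 other members with the most UMIs in the class where each is highest, and for any member at least 2-fold different with 50 UMIs in a pair within fibroblasts, endothelial cells or that class. Positions are from GENCODE M21 (GRCm38), promoters from RefSeq (25 of 32 members matched). The alternatives tried were collagens among the clustering genes, resolutions 0.5 and 2, no doublet removal, at least 2500 UMIs per cell, the mean over cells in place of the sum, ratios set against the median gene, a minimum of 20 or 200 UMIs, and leaving out clusters that came over 90% from the KO 72 h library, the last chosen after the data were seen.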

Additional observations from a re-analysis of the deposited data

Results flagged for a closer look

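2 transcripts moved in opposite directions in WT and KO at 24 h after ligation against sham, and the difference between the genotypes was not tested. Col28a1 in endothelial cells was at a log2 ratio of 1.14 (95% interval 0.41 to 1.86) in WT, on 31 against 39 UMIs, and -1.58 (95% interval -3.49 to -0.16) in KO, on 4 against 70 UMIs. 1 WT cell held 22.6% of the 31 UMIs at 24 h. Col18a1 in smooth muscle cells was at 1.82 (95% interval 1.43 to 2.20) in WT, on 143 against 97 UMIs, and -0.68 (95% interval -1.35 to -0.07) in KO, on 25 against 170 UMIs. 1 of the 50 WT cells held 27.3% of the 143 UMIs.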

How the results depend on the processing

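Every log2 ratio of the summed fibrillar level in fibroblasts kept its direction under the alternatives tried, and the values that moved beyond their counting interval were these. With collagens among the clustering genes: -0.78 for KO against WT at 72 h and 1.78 for KO 72 h against 24 h. At resolution 0.5: -1.25 for KO against WT at 72 h and 1.34 for KO 72 h against 24 h. At resolution 2: -1.17 for KO against WT at 72 h and 1.39 for KO 72 h against 24 h. Without doublet removal: -0.23 for KO against WT after sham, -0.81 for KO against WT at 72 h and 1.75 for KO 72 h against 24 h. With at least 2500 UMIs per cell: -0.89 for KO against WT at 72 h. As a mean over cells of each cell's own CPM: -0.28 for KO against WT after sham, 0.16 for KO against WT at 24 h, -0.34 for KO against WT at 72 h, -1.01 for WT 24 h against sham, -0.57 for KO 24 h against sham, 2.11 for WT 72 h against 24 h and 1.61 for KO 72 h against 24 h. Set against the median gene's ratio: 0.20 for KO against WT at 24 h, -0.81 for KO against WT at 72 h, -1.01 for WT 24 h against sham, -0.58 for KO 24 h against sham, 2.92 for WT 72 h against 24 h and 1.86 for KO 72 h against 24 h. Without clusters over 90% from the KO 72 h library, an alternative chosen after seeing the data: -0.88 for KO against WT at 72 h and 2.70 for WT 72 h against 24 h. For the summed basement membrane level in endothelial cells, whose ratios were all under 0.4 in size, the direction turned for KO against WT at 72 h, KO 24 h against sham and KO 72 h against 24 h, and the cause was not tested. These moved. At resolution 0.5: -0.63 for KO against WT at 72 h, 0.28 for WT 24 h against sham, -0.0175 for KO 24 h against sham and -0.15 for KO 72 h against 24 h. At resolution 2: -0.56 for KO against WT at 72 h and -0.0610 for KO 72 h against 24 h. Without doublet removal: 0.0929 for KO against WT at 72 h and 0.62 for KO 72 h against 24 h. With at least 2500 UMIs per cell: 0.16 for KO against WT at 72 h and 0.67 for KO 72 h against 24 h. As a mean over cells of each cell's own CPM: 0.11 for KO against WT after sham, -0.90 for KO against WT at 72 h, 0.47 for WT 24 h against sham and -0.37 for KO 72 h against 24 h. Set against the median gene's ratio: 0.12 for KO against WT after sham, -0.13 for KO against WT at 72 h, 0.43 for WT 72 h against 24 h and 0.39 for KO 72 h against 24 h. Col4a1 in pericytes, KO 72 h against 24 h, reversed to 0.30 with at least 2500 UMIs per cell. Of 269 ratios of single members, 114 moved as a mean over cells, 50 and 31 at resolutions 0.5 and 2, 41 against the median gene's ratio, 30 with at least 2500 UMIs, 25 without the clusters over 90% from the KO 72 h library, 17 without doublet removal and 4 with collagens in the clustering. Of 28 counts of members past 2-fold, made with a minimum of 50 UMIs, 8 moved by over 1.5 times with a minimum of 20 and 5 with 200. In fibroblasts these were members lower in KO at 24 h against sham (4, against 7 with 20 and 1 with 200), higher in KO at 72 h against 24 h (7, against 4 with 200) and higher in KO after sham (0, against 1 with 20). In endothelial cells every such count stayed between 0 and 4. No paired analysis was possible because each group has 1 library, and no replicate could be left out. Shallow depth limits the KO 72 h library most, and scarce members cannot be compared there.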

Other observations

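The ratio of Col15a1 to Col1a1 UMIs was higher in neutrophils than in fibroblasts of the same library. Col15a1 was at 13.1 and 13 CPM after sham, 2.86 and 4.74 at 24 h and 45.6 and 31.8 at 72 h in neutrophils, against 1.24 and 2.15 CPM after sham, 0.585 and 0.108 at 24 h and 1.12 and 3.68 at 72 h in monocytes and macrophages. In the WT 72 h library 952 neutrophils held 94 Col15a1 UMIs, of which 1 cell held 4.26%, and 8 Col1a1 UMIs, a ratio of 11.8 (95% interval 5.72 to 28.0), while the fibroblasts of that library had a ratio of 0.0477. In KO 72 h neutrophils the ratio was 1.03 (0.628 to 1.69), with 36 and 35 UMIs, in the sham libraries 2.15 and 3.33, and at 24 h 0.706 and 1.55. Fibroblasts were at 0.0477 to 0.302, and the counting intervals of the 2 classes did not overlap in any of the 6 libraries. Neutrophils were not alone in this. Summed over libraries, endothelial cells held 16.3% of the Col15a1 UMIs of kept cells and 0.0949% of those of Col1a1, against 2.46% and 0.197% in neutrophils. Monocytes and macrophages were at 1, 0.947, 1, 0.222, 1.23 and 0.354 in WT sham, KO sham, WT 24 h, KO 24 h, WT 72 h and KO 72 h, with intervals above those of fibroblasts in the sham and 72 h libraries and overlapping them at 24 h. Col15a1 rose from 24 h to 72 h in neutrophils of both genotypes, at 4.0 (95% interval 3.12 to 5.0) in WT and 2.75 (95% interval 2.07 to 3.41) in KO, in comparisons where 32% and 30.6% of all genes rose. In neutrophils with at least 2500 UMIs Col15a1 was at 3.58 CPM in KO at 24 h and 43.9 CPM at 72 h, on 22 and 10 UMIs.

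The class led by haemoglobin genes carried basement membrane collagens in every library: 1390.5, 1269, 1789 and 1369 CPM in WT sham, KO sham, WT 24 h and KO 24 h, and 263 and 920.3 CPM at 72 h. Endothelial cells were above it in each, at 2047 and 2149 CPM after sham, 2661 and 2315 at 24 h and 3291 and 2851 at 72 h. Col14a1 was detectable in monocytes and macrophages at 9.25 and 8.13 CPM after sham, 5.38 and 2.66 at 24 h and 9.49 and 12.7 at 72 h, from 46 to 229 UMIs.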
